A study of Zonotrichia albicollis with 38 samples.

Results

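Potassium channel genes were followed in the hypothalamus (HYP) and the medial amygdala (MeA) of white-throated sparrows, Zonotrichia albicollis. The members are the rows of the deposited count table whose symbol starts with KCN and whose mean reached 1 CPM (1 count in every 1000000 counts of the library) in HYP or in MeA over the 19 birds. This gave 63 of 69 KCN rows, among 15111 genes counted. Of the 63 members, 57 reached the threshold in both regions, 5 in HYP alone (KCNE2, KCNJ16, KCNK9, KCNMB4 and KCNQ1) and 1, KCNJ15, in MeA alone. The threshold can favour members that are high in 1 region. Just inside it, by CPM of the library total, lay KCNJ15 at 1.02 CPM in MeA, KCNJ16 at 1.86 CPM in HYP and KCNK9 at 1.98 CPM in HYP. Just outside were KCNK16 at 0.979 CPM and KCNA10 at 0.819 CPM, both in HYP. KCNK18, KCNV2, KCNJ13 and KCNJ1 were lower still.

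Potassium channels let potassium leave the cell, which returns the membrane to rest after an action potential and sets how readily a neuron fires. Voltage-gated (Kv) channels are built from several alpha subunits and open on depolarization, and modifier subunits that form no channel alone join some of them. Inward rectifiers and the leak channels of the KCNK family act near rest, other channels open on internal calcium or sodium, and auxiliary subunits alter gating and transport. The roles given below are those known from mammals.

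RNA was sequenced from free-living males caught in May or June, when territorial behaviour peaks, 1 day after an intruder had been staged with song playback. Groups were HYP of 10 white-striped (WS) birds, HYP of 9 tan-striped (TS) birds, MeA of the same 10 WS birds and MeA of the same 9 TS birds. WS birds carry an inverted form of chromosome ZAL2 that TS birds lack. Each library held 4 pooled punches of frozen tissue from 1 bird. HYP punches took in ventromedial and anterior hypothalamus, the paraventricular nucleus and the caudal part of the medial preoptic area, and MeA was most but not all of the tissue in MeA punches. In such bulk tissue, fewer cells of a type and less RNA per cell cannot be told apart. All birds had met such an intruder, so no unchallenged birds stand beside them. Birds are named by the number in their sample titles. Age class was uneven, with 8 WS birds labelled ASY and 2 SY, against 2 TS birds labelled ASY and 7 SY. Stage was labelled E in 8 WS and 6 TS birds, and I, L or L/I in the others, which are pooled here as later stages.

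The labelled regions were checked against marker genes. Hypothalamic markers, among them GAL, TRH, FEZF1, ISL1 and OTP, summed to between 670 and 1054 CPM in HYP libraries, against 8.51 to 29.5 CPM in MeA libraries. In HYP, GAL averaged 559 CPM and TRH 124 CPM, against 62.5 CPM for FEZF1, 74.6 CPM for ISL1 and 14.0 CPM for OTP. Pallial markers such as ZBTB18 and NEUROD6 summed to between 149 and 192 CPM in HYP, against 1189 to 1576 CPM in MeA. Libraries of MeA were the less even of the 2 regions. Markers of the leptomeninges, the membranes over the brain, ran from 40.3 to 64.6 CPM in HYP and from 30.5 to 492 CPM in MeA. Oligodendrocyte markers ran from 531 to 1984 CPM in HYP and from 1577 to 5656 CPM in MeA. The first principal component of the MeA libraries held 24.1% of their variance, and the 2 birds at each end of it were left out in an alternative fit. WS birds Sample_23600 and Sample_23602 lay together at an end, and TS birds Sample_23615 and Sample_23626 at the opposite end. The next birds inward were of the same morph as their end. They were WS bird Sample_23599 at −21.5 on this component, and TS birds Sample_23610 at 21.4 and Sample_23620 at 16.5. Between these birds the morphs overlapped.

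HYP and MeA differed in most potassium channel genes, in both directions. Of 62 members tested, 26 were higher and 27 lower in HYP, and 9 were not called (edgeR's quasi-likelihood test with the bird as a block, called at an adjusted p under 0.05 over all genes tested). Over all 12245 genes tested, 79.8% were called, 40.8% higher and 39.0% lower in HYP, so this share of called members is near the background. These shares of all genes are also the background for the counts by class below. Differences over 2-fold were called for 28 members, while 17.4% of all genes had one. These 28 include all 5 members that reached the threshold in HYP alone, which had to be higher there, and 23 of the 57 that reached it in both regions. The 19 HYP libraries lay wholly apart from the 19 MeA libraries for 27 members, 25 of them at the threshold in both regions, against 20.6% of all genes. In 41 tested members all 19 birds showed the same direction, KCNE2, KCNK9, KCNMB4 and KCNQ1 of the HYP-alone members among them. The share of all genes with such agreement was not taken, so this count cannot be set against the background. The median log2 fold change of HYP over MeA was 0.03 over the members and 0.01 over all genes tested. Among the 57 members at the threshold in both regions, 21 were higher in HYP, 27 lower and 9 not called, with a median of −0.12.

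**Figure D1:**
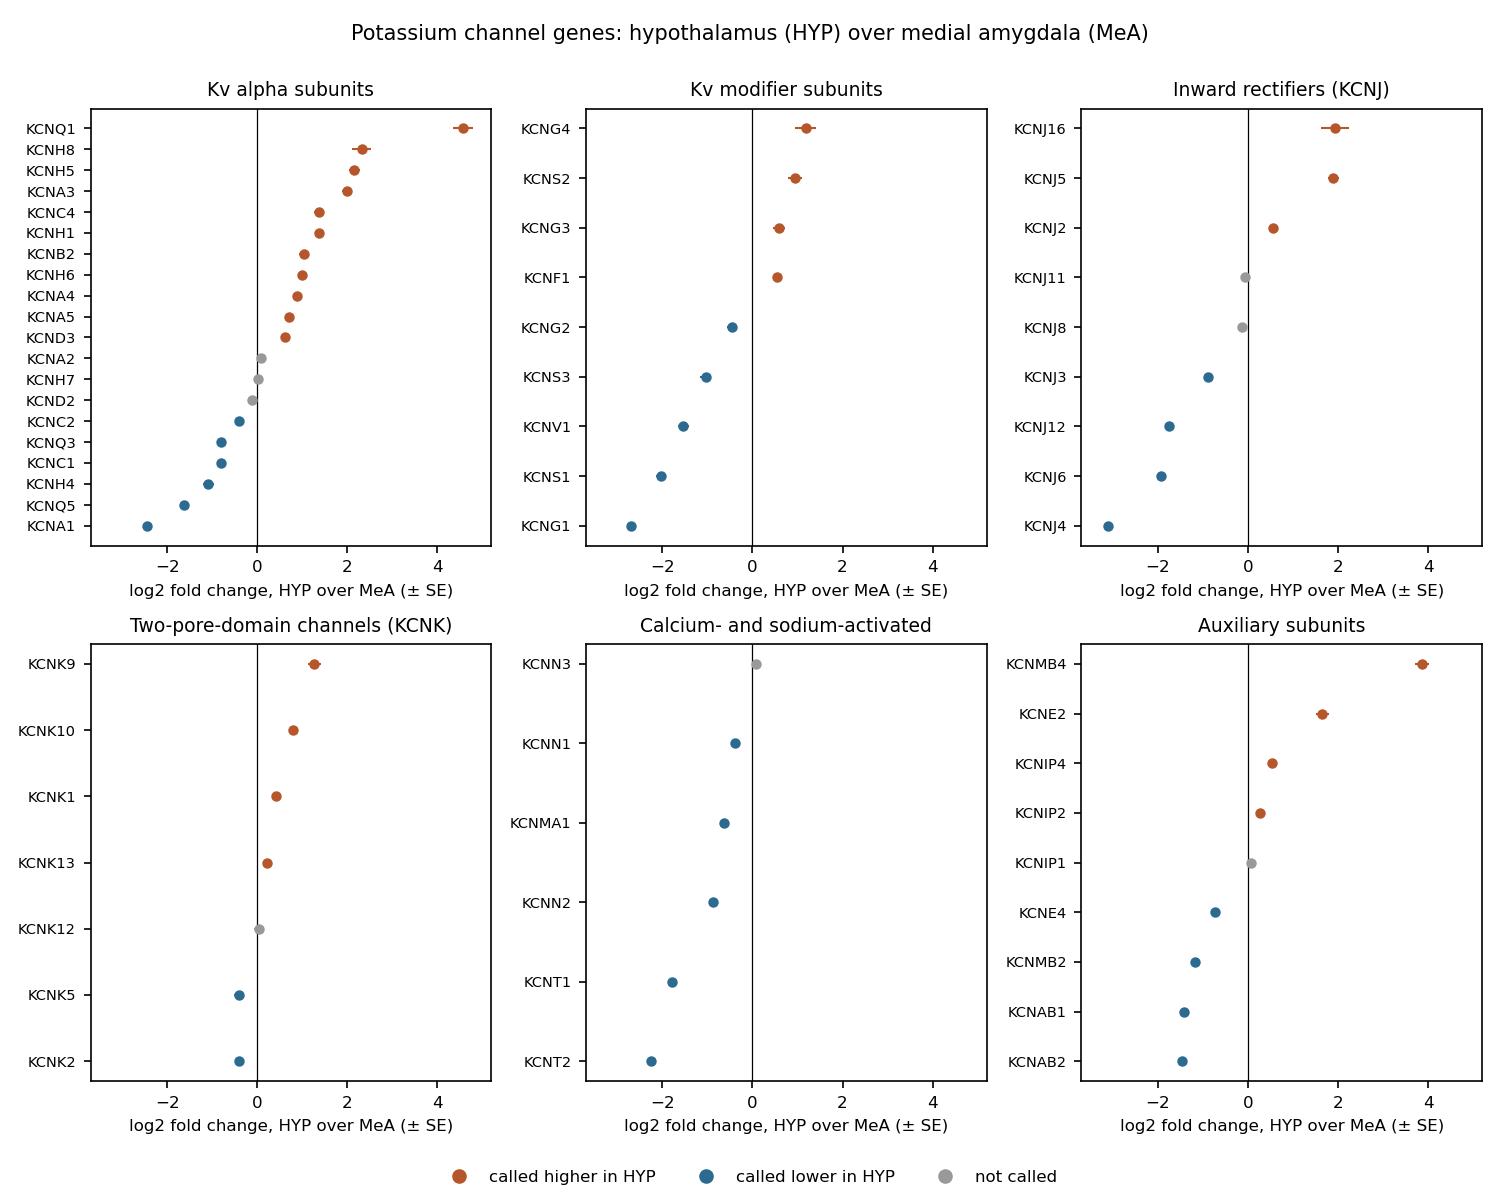
Log2 fold change of HYP over MeA (x axis) with its SE, for the tested potassium channel genes reported here, in 6 classes with 1 gene a row (19 birds, bird as a block). Points right of the line at 0 are higher in HYP, and called values run from −3.11 for KCNJ4 to 4.58 for KCNQ1. None of the 6 calcium- or sodium-activated channel genes was called higher in HYP, against 40.8% of all genes tested.

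Among the Kv alpha subunits, which form the voltage-gated pore, 11 of 22 members were higher in HYP, 7 were lower and 4 were not called, with a median log2 fold change of 0.35. By subfamily, 3 of 5 KCNA genes, 1 of 3 KCNC, 1 of 2 KCND, 4 of 6 KCNH and 1 of 4 KCNQ genes were higher in HYP. The lower ones were 1 KCNA, 2 KCNC, 1 KCNH and 3 KCNQ genes. The other Kv alpha member higher in HYP was KCNB2.

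KCNQ1, a slowly activating channel best known from heart and inner ear and a member through its HYP level alone, had its lowest, median and highest values at 2.10, 3.13 and 6.10 CPM in HYP, against 0, 0.100 and 0.554 CPM in MeA. It was 23.9-fold higher in HYP in the edgeR fit (log2 fold change 4.58, SE 0.22, adjusted p = 3.03e-15), and the lowest HYP bird stood above the highest MeA bird. At these low counts the MeA level rests on few reads a library. KCNQ5, which contributes to the M-current that restrains repetitive firing, ran the other way, at 17.7, 21.6 and 27.9 CPM in HYP against 49.4, 70.7 and 89.1 CPM in MeA. Its regions did not overlap either (log2 fold change −1.62, SE 0.084, adjusted p = 9.36e-15 in edgeR).

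In the KCNH family of ether-a-go-go channels, KCNH5 stood at 60.5, 73.9 and 83.6 CPM in HYP, against 9.64, 15.6 and 36.7 CPM in MeA (lowest, median and highest bird). Its log2 fold change was 2.16 (SE 0.12, adjusted p = 3.30e-14 in edgeR), without overlap. KCNH8, of the Elk-type branch, had 4.95, 6.97 and 9.03 CPM in HYP and 0.359, 1.17 and 5.03 CPM in MeA. It was higher in HYP in 19 of 19 birds, though the ranges overlapped because a WS and a TS bird reached about 5 CPM in MeA (log2 fold change 2.32, SE 0.21, adjusted p = 3.71e-10 in edgeR). KCNH1, a relative of KCNH5 on ZAL2, ran from 29.5 to 43.3 CPM in HYP and from 7.98 to 18.6 CPM in MeA, with a log2 fold change of 1.37 (SE 0.093). KCNH4, another Elk-type gene, was the lower one, with 1.15 ± 0.319 CPM in HYP against 2.48 ± 0.894 CPM in MeA (SD, n = 19 birds), a log2 fold change of −1.09 (SE 0.12, adjusted p = 1.41e-08 in edgeR). KCNH7, an Erg-type channel gene, averaged 15.5 ± 2.27 CPM in HYP against 15.3 ± 2.19 CPM in MeA and was not called (log2 fold change 0.02, SE 0.062).

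KCNA1, a low-threshold channel of axons, was the Kv alpha gene with the most negative fold change. It stood at 41.0, 50.0 and 64.1 CPM in HYP and at 206, 271 and 341 CPM in MeA (lowest, median and highest bird), so the regions lay far apart. The level in HYP was 5.46-fold lower (log2 fold change −2.45, SE 0.047, adjusted p = 5.91e-23 in edgeR). KCNA3, KCNA4 and KCNA5 were the KCNA genes higher in HYP, and KCNA2 was not called.

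**Figure D2:**
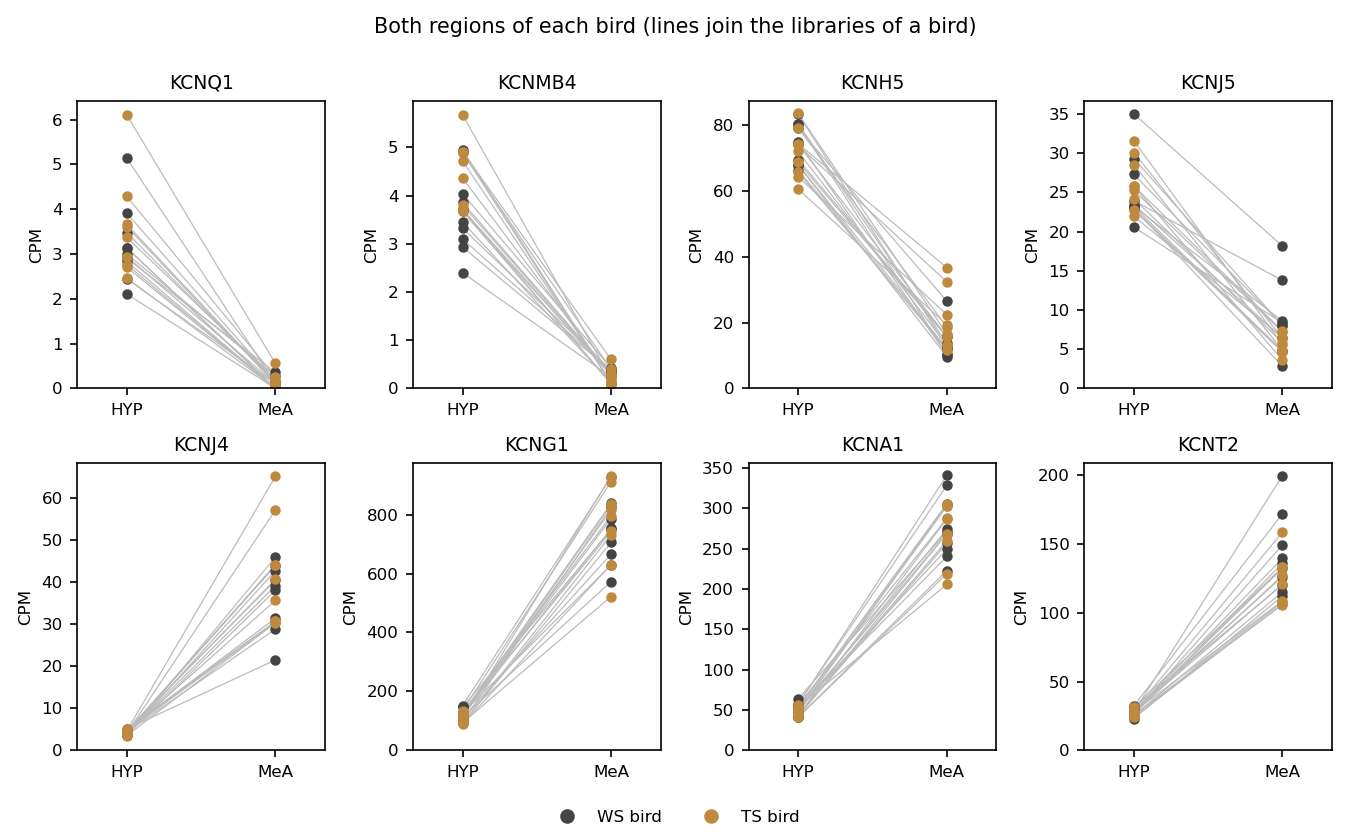
CPM (y axis, starting at 0) in HYP and MeA of each of 19 birds for 8 potassium channel genes, with a line joining the libraries of a bird and colour giving the morph. The 8 genes were picked by hand, and all are genes whose regions do not overlap, as for 20.6% of all genes tested. Members whose regions overlap, such as KCNH8 and KCNJ16, are not drawn. KCNQ1, KCNMB4, KCNH5 and KCNJ5 are higher in HYP in 19 of 19 birds, and KCNJ4, KCNG1, KCNA1 and KCNT2 are lower in HYP in 19 of 19. KCNQ1 and KCNMB4 are members through their HYP level alone.

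Modifier Kv subunits, which change the gating of KCNB channels, differed in every case: 4 of 9 were higher in HYP and 5 lower, with a median log2 fold change of −0.47. KCNG1 had the largest difference, with 88.8, 118 and 152 CPM in HYP against 522, 753 and 931 CPM in MeA (lowest, median and highest bird). It was 6.53-fold lower in HYP (log2 fold change −2.71, SE 0.053, adjusted p = 8.87e-23 in edgeR) and its regions did not overlap. KCNS1 averaged 4.50 ± 0.992 CPM in HYP against 19.1 ± 6.17 CPM in MeA (SD, n = 19 birds, log2 fold change −2.03, SE 0.12). KCNV1 averaged 5.81 ± 1.25 CPM in HYP against 17.2 ± 5.59 CPM in MeA (log2 fold change −1.54, SE 0.12). Both were lower in HYP without overlap between the regions.

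KCNS3 and KCNG2 were also lower, at −1.04 (SE 0.12) for KCNS3 and −0.47 (SE 0.095) for KCNG2 on the log2 scale, and in both the ranges of the regions overlapped. Higher in HYP were KCNG4, at 4.06 ± 0.947 CPM in HYP against 1.89 ± 1.40 CPM in MeA (log2 fold change 1.18, SE 0.23), and KCNG3, at 7.44 ± 1.27 CPM in HYP against 5.14 ± 1.86 CPM in MeA (log2 fold change 0.58, SE 0.13). KCNS2 had 45.0, 50.7 and 69.3 CPM in HYP and 9.76, 32.5 and 60.2 CPM in MeA (lowest, median and highest bird). It was higher in HYP in 18 of 19 birds (log2 fold change 0.95, SE 0.16, adjusted p = 8.22e-06 in edgeR), with a wide spread in MeA. KCNF1 was higher in all 19 birds, at 48.0 ± 3.96 CPM in HYP against 32.9 ± 4.74 CPM in MeA (log2 fold change 0.55, SE 0.053).

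Inward rectifiers pass potassium more easily into the cell than out of it. Of 9 KCNJ genes tested, 3 were higher in HYP, 4 were lower and 2 were not called, with a median log2 fold change of −0.12. KCNJ4, a strong rectifier of forebrain neurons, had 3.53, 4.44 and 5.14 CPM in HYP against 21.5, 39.1 and 65.1 CPM in MeA (lowest, median and highest bird). It was 8.63-fold lower in HYP (log2 fold change −3.11, SE 0.095, adjusted p = 3.45e-19 in edgeR), the most negative value of any member. KCNJ12, another strong rectifier, averaged 11.7 ± 2.23 CPM in HYP against 39.5 ± 7.50 CPM in MeA (log2 fold change −1.76, SE 0.066). KCNJ2, of the same group, differed in the other direction by a small amount, with 8.31 ± 1.41 CPM in HYP against 5.73 ± 1.77 CPM in MeA (log2 fold change 0.55, SE 0.077, adjusted p = 6.05e-07 in edgeR).

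The subunits of the channels opened by G proteins were divided between the regions. KCNJ6 had 24.4, 29.8 and 36.5 CPM in HYP against 84.1, 115 and 133 CPM in MeA (lowest, median and highest bird), a log2 fold change of −1.92 (SE 0.043, adjusted p = 1.17e-21 in edgeR). KCNJ5, best known from the heart, had 20.6, 24.2 and 35.0 CPM in HYP against 2.81, 6.41 and 18.1 CPM in MeA, a log2 fold change of 1.90 (SE 0.12, adjusted p = 4.76e-13 in edgeR). Neither gene's regions overlapped, and each gene showed its direction in 19 of 19 birds. KCNJ3, which encodes their common partner subunit, was among the genes lower in HYP.

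KCNJ16, a subunit that sets pH sensitivity in glial channels, was a member through its HYP level alone. It was low in both regions, at 1.76 ± 0.822 CPM in HYP against 0.462 ± 0.537 CPM in MeA (log2 fold change 1.93, SE 0.31, adjusted p = 4.21e-06 in edgeR). Its lowest value in MeA was 0 CPM both among WS birds and among TS birds. Markers of astrocytes ran the other way, with summed levels of 4333 to 5639 CPM in HYP and 6921 to 10460.0 CPM in MeA, and their part in the result was not tested. KCNJ11, the pore of the ATP-sensitive channel, averaged 21.3 ± 2.17 CPM in HYP against 22.3 ± 3.05 CPM in MeA and was not called (log2 fold change −0.06, SE 0.048). KCNJ15 did not pass the low-count filter of the region fit and had 0.398 ± 0.262 CPM in HYP against 1.07 ± 1.09 CPM in MeA.

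Among the members, the KCNK leak channels had the smallest range of differences of the 6 classes, from −0.41 to 1.27 on the log2 scale. Of these 7 genes, 4 were higher in HYP, 2 lower and 1 not called. For all 7 the values of the regions overlapped, while over all genes tested the regions lay wholly apart for 20.6%. KCNK16, just outside the threshold, lay beyond these differences at 1.90 (SE 0.19). So did KCNK15, a row the deposited table names otherwise, at −0.84 (SE 0.062). The ranking thus holds for the members alone. The upper end among the members is KCNK9, an acid-sensitive leak channel and a member through its HYP level alone. It had 1.15, 1.94 and 2.53 CPM in HYP and 0.301, 0.760 and 1.46 CPM in MeA (lowest, median and highest bird). It was higher in HYP in 19 of 19 birds (log2 fold change 1.27, SE 0.15, adjusted p = 3.59e-08 in edgeR). KCNK10, opened by stretch and lipids, averaged 12.7 ± 1.66 CPM in HYP against 7.37 ± 1.23 CPM in MeA, and KCNK1, a weak inward rectifier, averaged 71.7 ± 5.65 CPM in HYP against 53.9 ± 6.01 CPM in MeA. On the log2 scale KCNK10 was higher by 0.79 (SE 0.077) and KCNK1 by 0.42 (SE 0.041). KCNK2, the relative of KCNK10 that responds to the same stimuli, was lower in HYP, with 32.0 ± 5.05 CPM in HYP against 42.8 ± 9.55 CPM in MeA (log2 fold change −0.41, SE 0.088, adjusted p = 0.000182 in edgeR). KCNK5, an alkali-activated leak channel, averaged 3.49 ± 0.666 CPM in HYP against 4.71 ± 1.67 CPM in MeA (log2 fold change −0.40, SE 0.11, adjusted p = 0.00191 in edgeR). KCNK12, which gives little current alone, averaged 44.5 ± 5.90 CPM in HYP against 46.0 ± 19.1 CPM in MeA (log2 fold change 0.05, SE 0.11, not called).

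No calcium- or sodium-activated channel gene was called higher in HYP: 5 of 6 were lower and 1 was not called, with a median log2 fold change of −0.76. Over all genes tested, 40.8% were called higher and 39.0% lower in HYP, and with 6 genes the shares of this class are coarse. KCNT2 and KCNT1 encode the sodium-activated channels Slick and Slack, which carry a late outward current after bursts of spikes. KCNT2 had 23.1, 27.5 and 32.4 CPM in HYP against 106, 127 and 200 CPM in MeA (lowest, median and highest bird), and KCNT1 had 129, 155 and 176 CPM in HYP against 384, 517 and 748 CPM in MeA. Both were lower in HYP without overlap, by 4.74-fold for KCNT2 (log2 fold change −2.25, SE 0.047, adjusted p = 3.33e-22 in edgeR) and by 3.47-fold for KCNT1 (log2 fold change −1.79, SE 0.040, adjusted p = 1.04e-21 in edgeR). KCNN2, a small-conductance channel of the afterhyperpolarization, averaged 24.2 ± 3.43 CPM in HYP against 44.8 ± 6.08 CPM in MeA (log2 fold change −0.89, SE 0.063). Its relative KCNN3 averaged 10.1 ± 1.38 CPM in HYP against 9.58 ± 1.61 CPM in MeA and was not called (log2 fold change 0.08, SE 0.066). KCNMA1, the pore of the large-conductance calcium-activated (BK) channel, was among the lower genes. Neuron markers were also lower in HYP in 5 of 7 cases and higher in 2, with a median log2 fold change of −0.81 and summed levels of 4859 to 5728 CPM in HYP and 6694 to 8266 CPM in MeA. SNAP25, of the synaptic release machinery, was lower (log2 fold change −1.06, SE 0.036) and STMN2, a neuronal microtubule regulator, was higher in HYP (log2 fold change 0.82, SE 0.030). Their part in the differences of the channel genes was not tested.

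Of the auxiliary subunits, 4 of 9 were higher in HYP, 4 lower and 1 not called (median log2 fold change 0.07). Among the higher ones, KCNE2 and KCNMB4 reached the threshold in HYP alone and had to be higher there. The split therefore rests in part on the threshold. The beta subunits of the BK channel differed in opposite directions. KCNMB4, the beta subunit typical of brain, had 2.40, 3.81 and 5.67 CPM in HYP against 0.0885, 0.273 and 0.598 CPM in MeA (lowest, median and highest bird), 14.5-fold higher in HYP (log2 fold change 3.86, SE 0.16, adjusted p = 7.06e-17 in edgeR). KCNMB2, which makes BK channels inactivate, averaged 18.3 ± 3.35 CPM in HYP against 41.5 ± 5.23 CPM in MeA (log2 fold change −1.18, SE 0.051, adjusted p = 2.93e-16 in edgeR). Neither gene's regions overlapped.

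The cytoplasmic Kv beta subunits KCNAB1 and KCNAB2, partners of KCNA channels, were both lower in HYP. KCNAB1 averaged 80.5 ± 8.26 CPM in HYP against 221 ± 53.3 CPM in MeA (log2 fold change −1.42, SE 0.090), and KCNAB2 averaged 93.1 ± 6.57 CPM in HYP against 260 ± 35.8 CPM in MeA (log2 fold change −1.47, SE 0.047, adjusted p = 7.39e-19 in edgeR). KCNIP4, a calcium-binding partner of KCND channels, was higher, at 56.9 ± 5.31 CPM in HYP against 39.1 ± 4.09 CPM in MeA (log2 fold change 0.54, SE 0.040). Its relative KCNIP1 averaged 111 ± 7.96 CPM in HYP against 107 ± 22.2 CPM in MeA and was not called (log2 fold change 0.07, SE 0.065). KCNE2, a single-pass subunit found in choroid plexus, was a member through its HYP level alone. It averaged 2.81 ± 1.26 CPM in HYP against 0.880 ± 0.496 CPM in MeA (log2 fold change 1.66, SE 0.14, adjusted p = 7.20e-11 in edgeR). Markers of ependyma and choroid plexus summed to 42.7 to 65.3 CPM in HYP and 2.39 to 9.14 CPM in MeA. FOXJ1 and RSPH1, genes of motile cilia, carried this sum, while OTX2, a choroid plexus gene, averaged 0.563 ± 0.336 CPM in HYP against 0.981 ± 1.38 CPM in MeA and was not called (log2 fold change −0.48, SE 0.45). Their part in the KCNE2 result was not tested.

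Other genes of potassium handling gave a setting for these values. Of 10 tested partners of potassium channels, 5 were higher and 5 lower in HYP, with a median log2 fold change of −0.14. ABCC8, a sulfonylurea receptor that joins KCNJ11, was 4.15-fold lower in HYP (log2 fold change −2.05, SE 0.046), although KCNJ11 was not called. ABCC9, another of these partners, was higher in HYP (log2 fold change 0.28, SE 0.041). None of 4 sodium pump subunits was called higher in HYP and 3 were lower, and both chloride cotransporters tested, SLC12A2 and SLC12A5, were lower. Voltage-gated sodium channel genes gave 2 higher and 4 lower of 7 tested, and calcium channel genes 7 higher and 7 lower of 17. Beside the counts of these short lists, 79.8% of all genes tested were called, 40.8% higher and 39.0% lower in HYP.

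Potassium channel genes varied more among the birds in MeA than in HYP, as most genes did. The spread is the SD among birds of log2(CPM + 0.5), taken around the mean of each morph. Over the 46 members with at least 5 CPM in both regions, the median SD was 0.168 in HYP and 0.252 in MeA, and it was larger in MeA for 40 of them, or 87%. Over all 9679 tested genes at such levels the median SD was 0.131 in HYP and 0.174 in MeA, larger in MeA for 81.7%. Among these 46 members the widest spread in MeA belonged to KCNS2, with an SD of 0.187 in HYP and 0.657 in MeA, and KCNK12, with 0.207 in HYP and 0.645 in MeA. KCNK12 ran from 29.6 to 53.2 CPM in HYP and from 17.8 to 81.7 CPM in MeA. In MeA the same birds were at the ends for KCNS2 and KCNK12: WS bird Sample_23602 was lowest and TS bird Sample_23626 highest for both, and both birds also lie at the ends of the first principal component of the MeA libraries. KCNC2, a fast channel gene, varied little, with an SD of 0.120 in HYP and 0.119 in MeA.

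**Figure D3:**
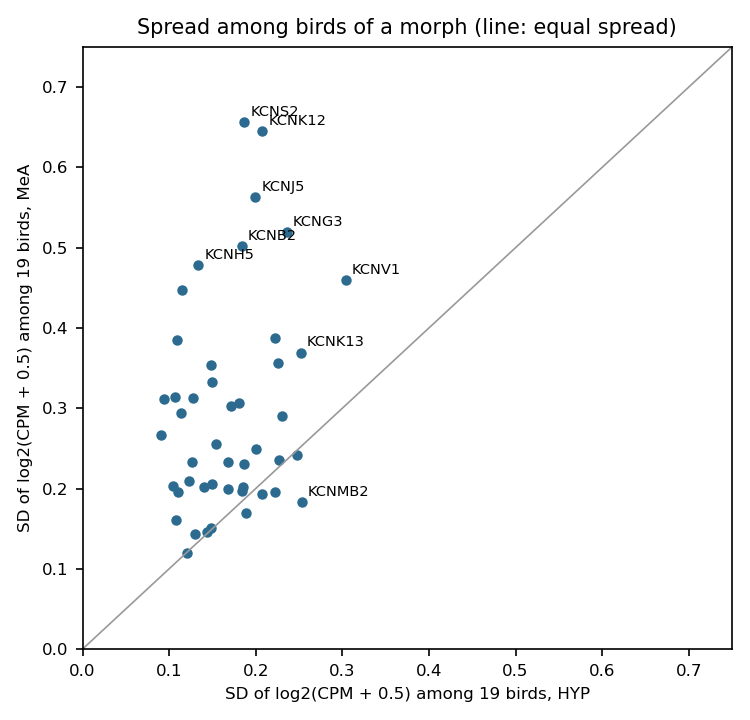
SD among birds of log2(CPM + 0.5) in HYP (x axis) and in MeA (y axis) for the 46 potassium channel genes with at least 5 CPM in both regions, 1 point a gene, with a line of equal spread. For 40 genes the point lies above the line, and KCNS2 and KCNK12 reach 0.657 and 0.645 in MeA against 0.187 and 0.207 in HYP.

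Between the morphs, 1 potassium channel gene was called, KCNK5 in MeA. In HYP none of 62 members tested was called between WS and TS by edgeR's quasi-likelihood test or by DESeq2, where 0.796% of all genes tested were called. Their lowest adjusted p was 0.297 in edgeR. An unadjusted p under 0.05 was reached by 4 members, KCNH1, KCNMB4, KCNK5 and KCNG4, or 6.45%, against 7.59% of all genes. In MeA 1 of 57 members tested was called, KCNK5, by edgeR and by DESeq2 alike, where 0.523% of all genes were called by edgeR. An unadjusted p under 0.05 was reached there by 8 members, or 14.0%, against 8.85% of all genes, with 4 higher and 4 lower in WS. Besides KCNK5 these were KCNH5, KCNJ12, KCNJ5, KCNK10, KCNK13, KCNK2 and KCNT1.

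KCNK5 had 2.15, 3.62 and 5.74 CPM in MeA of WS birds and 4.52, 5.63 and 7.68 CPM in MeA of TS birds (lowest, median and highest bird). All 10 WS birds lay below the TS mean, and the ranges overlapped because 1 WS bird, Sample_23625, had 5.74 CPM. The log2 fold change of WS over TS was −0.78 (SE 0.16, adjusted p = 0.0238 in edgeR), a 1.72-fold lower level in WS. In HYP the values were 2.53, 2.95 and 3.89 CPM in WS birds and 3.14, 3.72 and 4.72 CPM in TS birds, with 9 of 10 WS birds below the TS mean. There the log2 fold change was −0.29 (SE 0.12) and was not called (adjusted p = 0.519 in edgeR). The difference between the regions in the morph effect was 0.51 on the log2 scale and was not called (adjusted p = 0.399 in edgeR).

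The call for KCNK5 in MeA was close to the threshold. It was lost when WS bird Sample_23601, TS bird Sample_23607 or TS bird Sample_23608 was left out, with adjusted p-values up to 0.057 in edgeR. It was also lost with age class in the model (log2 fold change −0.84, adjusted p = 0.145 in edgeR), among stage E birds alone (−0.87, adjusted p = 0.16 in edgeR) and without the 4 birds at the ends of the MeA axis (−0.80, adjusted p = 0.101 in edgeR). Leptomeningeal markers in MeA ran from 77.2 to 427 CPM in WS and from 30.5 to 492 CPM in TS, oligodendrocyte markers from 1577 to 5043 CPM in WS and from 2826 to 5656 CPM in TS, and none of their tested genes was called between the morphs. Their part in the result was not tested.

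**Figure D4:**
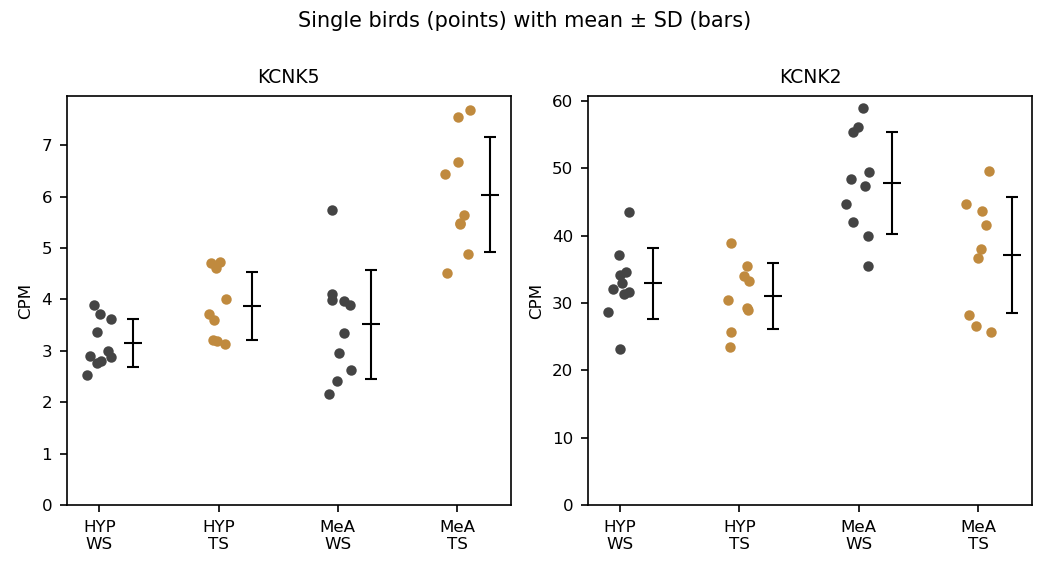
CPM (y axis, starting at 0) of KCNK5 and KCNK2 in single birds (points) of the groups HYP WS, HYP TS, MeA WS and MeA TS, with bars for the mean ± SD (n = 10 WS and 9 TS). In MeA, KCNK5 averages 3.52 CPM in WS against 6.04 CPM in TS, and KCNK2 averages 47.8 CPM in WS against 37.2 CPM in TS.

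KCNK5 is 1 of 9 members on ZAL2, the chromosome of the inversion, taken here as the chromosome that also holds ESR1 and VIP. The others are KCNF1, KCNG3, KCNH1, KCNK1, KCNK2, KCNK12, KCNQ5 and KCNS3. None of the 9 was called in HYP by edgeR or by DESeq2, where 9.37% of all tested ZAL2 genes were called by edgeR, and 2 of 9, KCNH1 and KCNK5, had an unadjusted p under 0.05, as 34.7% of ZAL2 genes did. In MeA 1 was called, where 6.24% of ZAL2 genes were, and 2 of 9, KCNK2 and KCNK5, had an unadjusted p under 0.05, as 31.9% of ZAL2 genes did. With 9 members these shares are coarse.

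KCNH1 stood at 32.4, 35.5 and 43.3 CPM in HYP of WS birds and at 29.5, 30.8 and 38.7 CPM in HYP of TS birds (lowest, median and highest bird). All 10 WS birds were above the TS mean, yet the difference did not pass the adjustment (log2 fold change 0.18, SE 0.061, adjusted p = 0.297 in edgeR). In MeA KCNH1 averaged 12.4 ± 3.21 CPM in WS against 14.6 ± 2.58 CPM in TS (SD, n = 10 and 9 birds, log2 fold change −0.25, SE 0.14, not called). KCNK2 in MeA had 35.6, 47.9 and 59.0 CPM in WS birds and 25.7, 38.1 and 49.6 CPM in TS birds. For KCNK2, 9 of 10 WS birds were above the TS mean, and the difference was not called (log2 fold change 0.36, SE 0.12, adjusted p = 0.341 in edgeR).

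The remaining morph differences of ZAL2 members lay within 2 SE of 0. In HYP the log2 fold changes of WS over TS were 0.02 for KCNF1 (SE 0.056), 0.06 for KCNG3 (SE 0.12), 0.09 for KCNK1 (SE 0.049), 0.08 for KCNK2 (SE 0.097), −0.06 for KCNK12 (SE 0.086), −0.06 for KCNQ5 (SE 0.078) and 0.24 for KCNS3 (SE 0.22). In MeA they were 0.01 for KCNF1 (SE 0.095), −0.39 for KCNG3 (SE 0.24), −0.08 for KCNK1 (SE 0.072), −0.04 for KCNK12 (SE 0.27), 0.02 for KCNQ5 (SE 0.13) and −0.24 for KCNS3 (SE 0.15). None of these was called by edgeR.

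**Figure D5:**
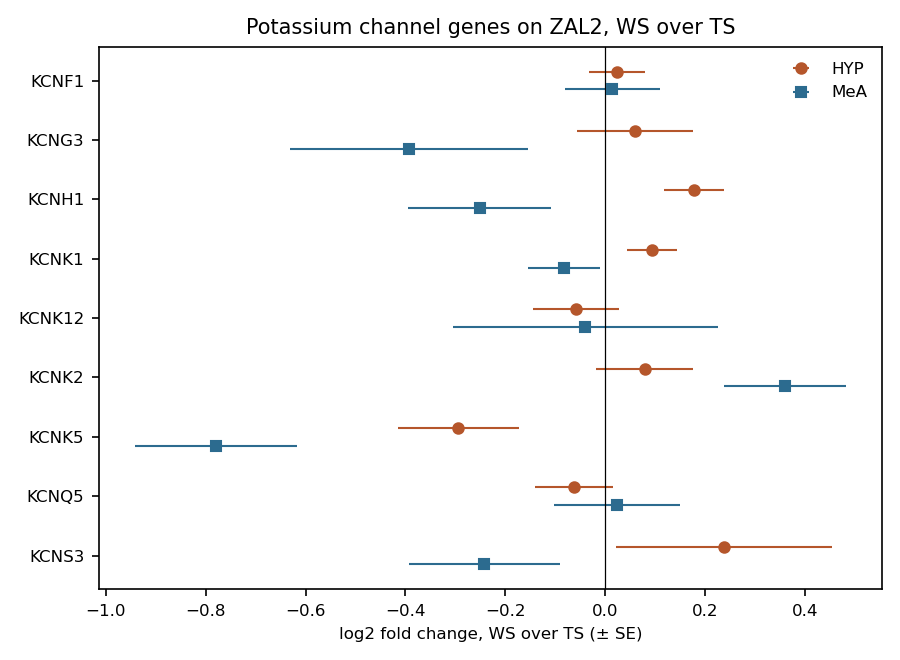
Log2 fold change of WS over TS (x axis) with its SE for the 9 potassium channel genes on ZAL2, in HYP (circles) and MeA (squares), from edgeR. KCNK5 in MeA at −0.78 is the value that passed the adjustment, and KCNH1 at 0.18 in HYP and KCNK2 at 0.36 in MeA did not.

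No member was called for the interaction of morph and region among 62 tested, by edgeR or by DESeq2, where edgeR called 0.0245% of all genes. An unadjusted p under 0.05 was reached by 9 members, or 14.5%, against 10.5% of all genes, among them KCNH1, KCNH5, KCNJ5, KCNK1, KCNK10, KCNK5 and KCNT1. The lowest adjusted p among them was 0.366 in edgeR.

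Neither age class nor stage gave a call among the members. Between ASY and SY birds, with morph in the model, none of 62 members was called in HYP and none of 57 in MeA by edgeR or by DESeq2, where 0% of all genes were called by edgeR in each region. An unadjusted p under 0.05 was reached by 3 members in HYP, or 4.84%, against 4.71% of all genes, namely KCNK12, KCNQ3 and KCNQ5, all lower in ASY. It was reached by 0 members in MeA, against 3.58% of all genes. Between the later stages and stage E, none of 62 members in HYP and none of 59 in MeA was called by edgeR or by DESeq2, where 0% of all genes were called by edgeR in each region. Of the members in HYP 6, or 9.68%, had an unadjusted p under 0.05, against 5.73% of all genes, 3 higher and 3 lower in the later stages. In MeA 7 members, or 11.9%, had one, against 8.88% of all genes, and all 7 were higher in the later stages, among them KCNA4, KCNC2, KCNF1 and KCNH5. How the 8.88% divide by direction was not taken. With 2 WS and 3 TS birds in the later stages, these comparisons rest on few birds.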

How the data were processed

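RNA from HYP and MeA punches of 19 male birds was, per the labels' protocols, purified with the AllPrep micro kit (Qiagen) and made into TruSeq RNA v2 libraries (Illumina). The authors deposited a table of read counts per gene, whole numbers that are not normalized, and for each region a table of variance-stabilized values on an approximately log2 scale, and these deposited log2 values served 1 alternative fit only. The submitters' processing notes name Novoalign, SAMtools, GATK, STAR, HTSeq and DESeq2. Genome build, strand setting and the handling of multiply matching reads were not given in the sources used here. Overlapping or near-identical genes may therefore share reads. The count table has 2 columns of per-sample values with no sample among those listed, which were left unused. Per library, between 7150476 and 14482856 reads were counted.

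The main test on the counts was that of edgeR 4.0.16 under R 4.3.3 (TMM normalization, filterByExpr with a minimum count of 10, quasi-likelihood F test), with Benjamini-Hochberg adjustment across every gene tested and calls at an adjusted p under 0.05. The scripts were tested on simulated data. Region and interaction fits had the bird as a block, morph fits had morph alone, and age and stage fits had morph in the model. The band number in the titles pairs the libraries of a bird. Checked over 12245 genes, deviations from the group means correlated best within the own bird in 19 of 19 birds (r of 0.253 to 0.44, against at most 0.147 for any other bird). DESeq2 1.42.0 and limma 3.58.1 served alternatives. Printed CPM are counts on TMM-scaled library sizes over all 38 libraries, except at the membership threshold, and each SE was obtained by dividing the size of the log2 fold change by the root of its F statistic. Levels were compared between samples and not between genes, since gene lengths were not used. Birds are the replicates.

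Of the members, 59 of 63 matched a RefSeq gene table of the assembly bZonAlb1.hap1 by symbol, which served only to tell which genes lie on ZAL2, and the 4 others were not placed. That reference also gives KCN symbols, KCNK15 and KCNRG, to 2 further rows of the counts. They were not counted as members, since the deposited table names them otherwise.

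The members and lists were chosen with earlier results of these data known. Named with values were, in each class, up to 3 members with the largest positive and up to 3 with the largest negative called region fold change and the 1 with the smallest, every member called in another comparison, every member on ZAL2, and those next to the threshold. KCNC2, named for its spread, was chosen after its values were seen. Some members were counted in the totals but are not reported by name here.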

Additional observations from a re-analysis of the deposited data

Results flagged for a closer look

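Among the 41 named genes, 164 combinations of gene and group were examined for 1 bird far from the others of its group, and 14 had one by Dixon's criterion, which chance alone meets in about 5% of groups. TS bird Sample_23607 was the distant one in 3 of them: KCNH8 in MeA at 4.98 CPM (nearest other bird 1.59 CPM), KCNMB2 in MeA at 32.4 CPM (nearest 40.5 CPM) and KCNS2 in HYP at 69.3 CPM (nearest 57.2 CPM). WS bird Sample_23710 was distant in 3 as well: KCNH8 in MeA at 5.03 CPM (nearest 2.01 CPM), KCNJ2 in MeA at 10.4 CPM (nearest 6.99 CPM) and KCNJ12 in HYP at 18.5 CPM (nearest 13.4 CPM).

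KCNQ1 in TS bird Sample_23620 was high in both regions, at 6.10 CPM in HYP (nearest 4.29 CPM) and 0.554 CPM in MeA (nearest 0.253 CPM). TS bird Sample_23623 was high for KCNH1 in HYP at 38.7 CPM (nearest 33.6 CPM) and low for KCNK12 in HYP at 29.6 CPM (nearest 42.2 CPM). KCNH5 in MeA of WS bird Sample_23540 stood at 26.5 CPM (nearest 15.9 CPM). KCNJ16, with few reads in each library, had a distant high bird in 3 groups: WS bird Sample_23604 in HYP at 3.65 CPM (nearest 2.12 CPM), WS bird Sample_23599 in MeA at 1.50 CPM (nearest 0.587 CPM) and TS bird Sample_23705 in MeA at 2.18 CPM (nearest 0.608 CPM).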

How the results depend on the processing

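The region counts of 26 members higher and 27 lower in HYP ran from 25 to 27 and from 27 to 28 over the alternatives, and with no replicate block they were 25 and 27. The paired and unpaired fits therefore gave counts within 1 of each other. In MeA the count of 1 member called between WS and TS became 0 with age class as a covariate, 0 among stage E birds alone, and 0 without the 4 birds at the ends of the MeA axis, an alternative chosen after seeing the data. Leaving out 1 bird at a time gave 0 to 1. The cause was not tested, but fits without birds or among stage E birds hold fewer libraries. Over 28 alternatives the edgeR, DESeq2 and limma adjusted p for KCNK5 in MeA ran from 0.000953 to 0.16, and its log2 fold change from −0.88 to −0.31, where −0.31 is on the deposited variance-stabilized scale. No called value changed sign under the alternatives run. Values of single genes that were not called changed sign 55 times. Members of a few CPM, such as KCNQ1, KCNMB4 and KCNJ16 in MeA, rest on few reads.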
